A study of Medicago truncatula with 18 samples.

Results

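The genes described here were higher in LD than in SD at dawn, and their LD and SD means later in the morning lay within a set window. They were chosen by measured values: the mean TPM (transcript abundance scaled for transcript length and library total) of the 3 libraries of each group was taken, d was computed as log2((LD + 1)/(SD + 1)), and a gene was kept when (LD + 1) was at least 2.378 times (SD + 1) at ZT0 and d was between -0.5 and 0.5 at both ZT2 and ZT4. Of the 50444 genes in the tables, 103 met this rule. A further 492 genes reached the limit at ZT0 and were outside the window at ZT2 or ZT4. The rule used LD against SD at all 3 timepoints, so values of that contrast are given for the members as a description and not as a test.

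Leaves of *Medicago truncatula* cv. Jester were measured by RNA-Seq in 18 libraries, with 3 replicates in each of 6 groups: LD and SD at ZT0, ZT2 and ZT4, where ZT counts hours from lights on. Each library pooled the first trifoliate leaf of 2 plants. LD plants had 16 h of light a day and SD plants had 8 h. All plants came from vernalised seed and spent 10 days in SD before the LD plants were shifted. At ZT0 and ZT2 (experiment 1) the plants were 13 days old, with 3 days in LD for the LD groups. At ZT4 (experiment 2) they were 15 days old, with 5 days in LD, and TruSeq Stranded mRNA libraries were made in place of ScriptSeq ones, so time of day, age, days in LD and kit cannot be told apart between ZT4 and the earlier timepoints. Every LD and SD comparison lies within an experiment. In bulk leaves, fewer cells of a type and less RNA per cell cannot be told apart.

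Dawn ends nights of different length in the 2 photoperiods. In plants, the circadian clock times many transcripts to the hours around dawn, and light itself induces others within the first hours of the day. Leaf starch made during the day is broken down at night and its sugars are exported or respired, and enzymes of starch, sucrose and phenylpropanoid metabolism are known for strong daily rhythms of their transcripts. *M. truncatula* flowers earlier in LD after vernalisation, and the leaf is where day length is perceived.

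Depth was similar across libraries, with totals of 18009808 to 23201592 estimated counts. Replicates differed by more than sampling noise in all 18 pairs (chi-square per gene between 2.3 and 77.4), so each counted as a sample. The largest values were in the dawn groups. SD replicate 2 of ZT0 differed from replicates 1 and 3 by 77.4 and 68.8, against 6.23 between those. LD replicate 3 of ZT0 differed from replicates 1 and 2 by 41.1 and 52.9, against 13.07 between those. All 12 leaf mesophyll genes checked (the RuBisCO small chain, RuBisCO activase and light-harvesting complex I) were above 0 in every library. Their summed level was higher in LD, at 120638 to 131705 TPM in LD and 77524 to 88442 TPM in SD at ZT0, 123539 to 130541 TPM in LD and 87165 to 99839 TPM in SD at ZT2, and 113668 to 124875 TPM in LD and 80962 to 83045 TPM in SD at ZT4. The sum hides RuBisCO activase (*Medtr3g068030*), which went the other way at ZT0, at 13321 TPM in LD and 14729 TPM in SD. The part of the 12 genes in the members' values was not tested.

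The members covered a wide range of levels. Their mean TPM at ZT0 ran between 1.56 and 1710 in LD (median 16.2) and between 0 and 375.0 in SD (median 5.2). In LD at ZT0, 5 members were above 100 TPM, 66 were under 25 TPM and 18 were under 5 TPM. The median d was 1.47 at ZT0, with a highest value of 3.18. At ZT2, 72 members had the higher mean in LD and 30 in SD (median d 0.19), and at ZT4 these numbers were 42 and 60 (median d -0.03), all within the window of the rule. The window does not mean that LD and SD were equal. At ZT2 *Medtr8g103380* was at 30.5 TPM in LD and 21.6 TPM in SD. Through the 1 added to each TPM, weak members could differ by a larger ratio, such as *Medtr8g104655* at 0.367 TPM in LD and 0.014 TPM in SD. Calls of LD against SD at ZT2 and ZT4 are not given for the members. The LD libraries lay wholly above the SD libraries at ZT0 in 101 of the 103 members, where 24.1% of the 28480 genes tested at ZT0 did so, and 98 members were called higher in LD by edgeR's quasi-likelihood test, where 14.3% of those genes were. Both counts use the contrast of the rule, and nothing is read from them.

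**Figure D1:**
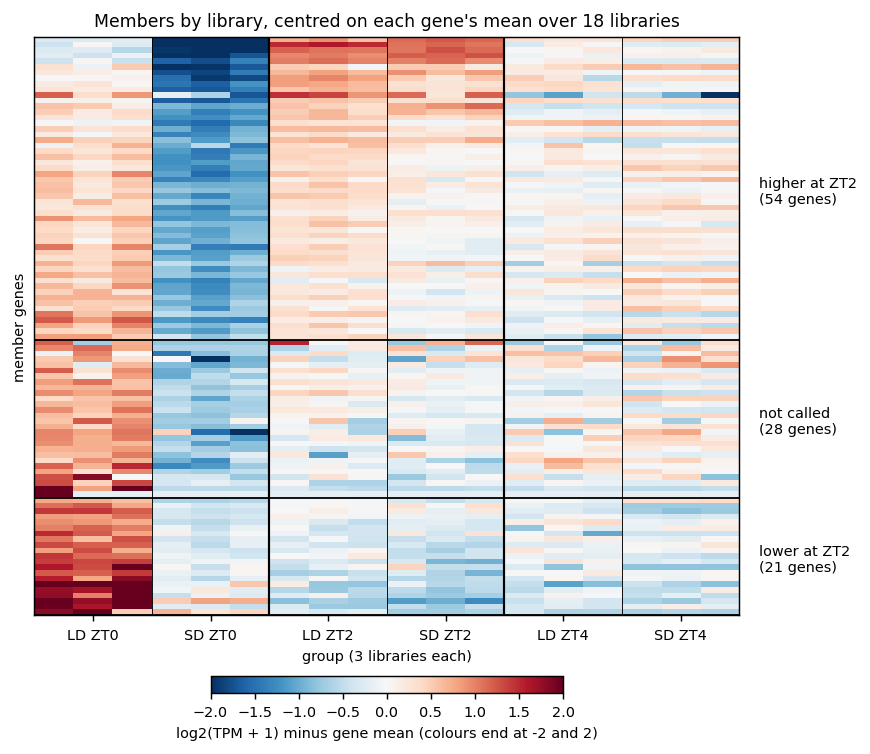
Heat map of the 103 members (rows) in the 18 libraries (columns, 3 in each group), as log2(TPM + 1) minus the mean of the gene over all libraries. Rows are grouped by the call of ZT2 against ZT0 averaged over photoperiods. In the 54 members called higher at ZT2 the SD libraries of ZT0 stand out as low, and in the 21 called lower the LD libraries of ZT0 stand out as high.

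Some members rested on few reads or on 1 library. In 10 members each SD library at ZT0 held at most 3 counts, and in 4 of them all were at 0. In 6 members 1 LD library held over 50% of the LD total at ZT0. The extreme was *Medtr8g106795*, singled out after its values were seen, with 9.22, 0 and 0 TPM in LD at ZT0 and 0 in each SD library. The others were *Medtr1g055215*, *Medtr1g091023*, *Medtr3g099160*, *Medtr3g103180* and *Medtr8g104655*.

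The limit of the rule did not fall at a gap. The members just inside it were *Medtr5g098510* (a beta-2 regulatory subunit of an SNF1-related kinase), *Medtr2g437160* (an mTERF protein) and *Medtr7g045270* (a hypothetical protein), with d of 1.2521, 1.2532 and 1.2544 at ZT0. Just outside were *Medtr7g087190* (a GDSL-like lipase) and *Medtr4g076520* (isochorismate synthase, which makes the precursor of salicylic acid and phylloquinone), and *Medtr6g048300* (a MinD septum site protein), with d of 1.246, 1.2455 and 1.2395.

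The largest d at ZT0 belonged to *Medtr1g091023*, a cytochrome P450, a family of oxidases in plant specialised metabolism. It had 10.6, 1.49 and 12.2 TPM in LD at ZT0, against 0 in each SD library. LD was at least 78.3-fold higher in CPM (counts scaled to library size), with SD set to 3 counts per library. The LD libraries were far apart, and replicate 2 was the low one. At ZT2 and ZT4 no library of either photoperiod was above 0.192 TPM.

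*Medtr8g463380*, a TCP transcription factor (a plant family that controls leaf growth and cell proliferation), had 26.3, 19.9 and 26.5 TPM in LD at ZT0, against 4.24, 3.78 and 3.54 TPM in SD. LD and SD were close at ZT2, with 11.6 ± 0.415 TPM in LD and 11.3 ± 0.843 TPM in SD (after a TPM value, ± gives the standard deviation of 3 libraries). At ZT4 it was at 9.14 ± 1.35 TPM in LD and 12.1 ± 0.094 TPM in SD. Dawn was thus the highest of the 3 timepoints in LD and the lowest in SD.

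*Medtr4g115360*, a lipid transfer protein, was the most abundant member. It had 1732, 1226 and 2173 TPM in LD at ZT0, against 312, 349.8 and 463 TPM in SD. Lipid transfer proteins are small secreted proteins that carry lipids and are abundant in leaf epidermis. It stood at 722 ± 88.7 TPM in LD and 649 ± 116 TPM in SD at ZT2. As in the TCP gene, the ZT2 values lay between the LD and the SD values of dawn.

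Other members were low at dawn in SD and within the window of the rule afterwards. *Medtr5g026350*, a nodulin-like transporter of the major facilitator superfamily, had 6.56, 6.56 and 6.91 TPM in LD at ZT0, against 0.702, 0.622 and 0.925 TPM in SD. *Medtr8g044230*, an LRR receptor-like kinase (a cell-surface receptor type), had 9.55, 6.89 and 11.3 TPM in LD, against 0.919, 1.19 and 1.66 TPM in SD. At ZT2 the transporter was at 14.5 ± 1.77 TPM in LD and 19.7 ± 0.782 TPM in SD, and the kinase at 9.63 ± 2.08 TPM in LD and 10.3 ± 1.42 TPM in SD. The kinase therefore held about its dawn level in LD, whereas the transporter was above its dawn level in both photoperiods. *Medtr7g105850*, an aspartyl protease, had 26.7, 20.8 and 30.4 TPM in LD at ZT0, against 6.72, 4.55 and 5.91 TPM in SD. *Medtr4g019790*, a glutathione S-transferase (an enzyme that conjugates glutathione to reactive compounds), had 26.6, 36.5 and 29.7 TPM in LD, against 6.46, 7.34 and 8.25 TPM in SD. Absence of overlap at ZT0 was a condition for naming these genes.

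**Figure D2:**
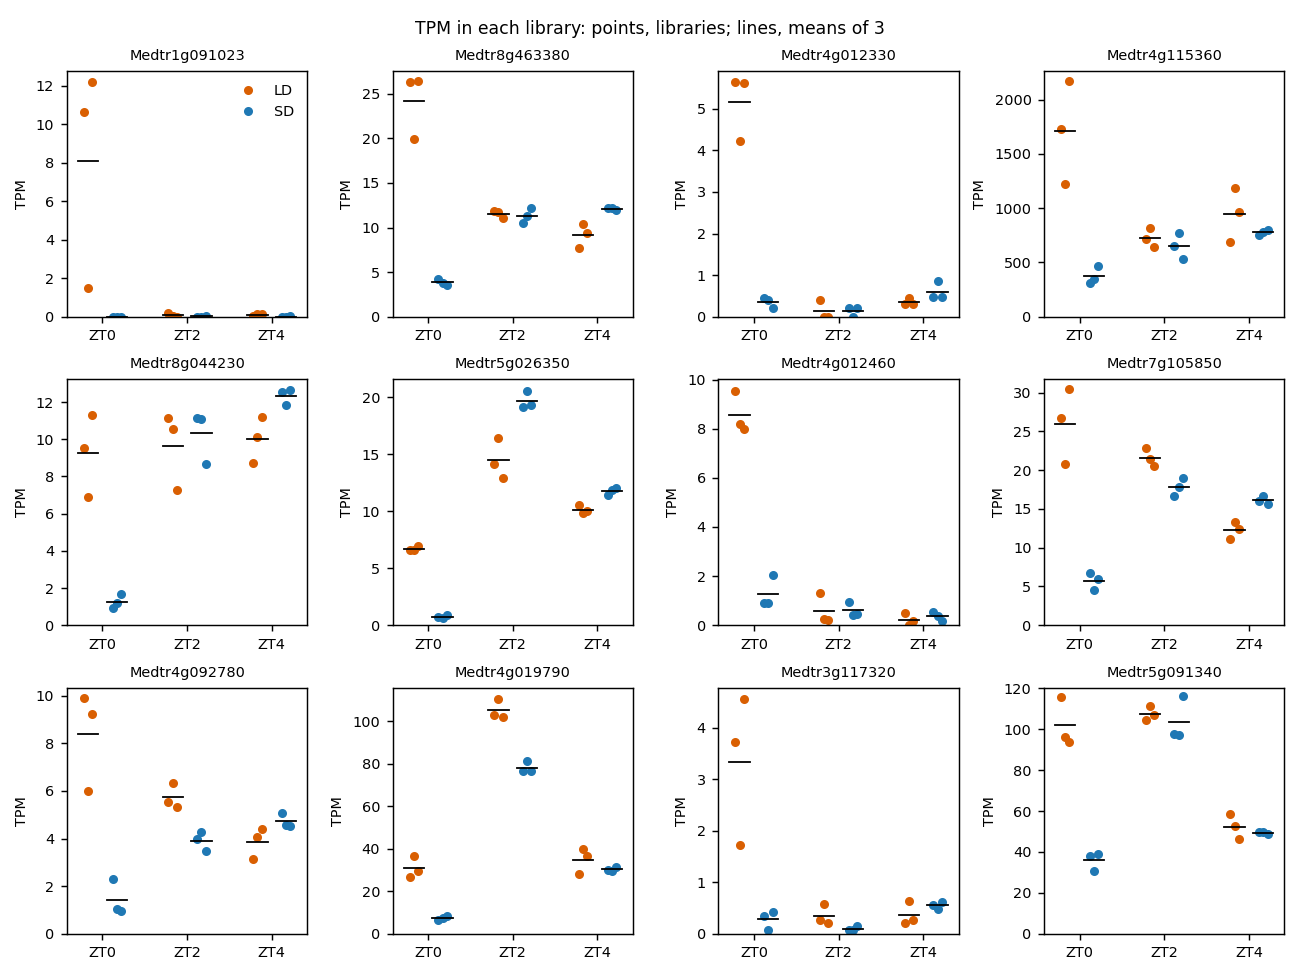
TPM of 12 members in each library at ZT0, ZT2 and ZT4, with LD left of SD, points for libraries and lines for means of 3. The first 10 panels are the members with the largest d at ZT0 among those with at least 5 TPM in LD and no overlap, followed by *Medtr3g117320* and *Medtr5g091340*. LD and SD are apart at ZT0 and within the window of the rule at ZT2 and ZT4, on a scale that runs to 2173 TPM in *Medtr4g115360* and to 4.56 TPM in *Medtr3g117320*.

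The rule was also applied without the libraries of each replicate number, and d was then read in those libraries alone. When replicates 2 and 3 alone chose the genes, 110 were found, and 68 of them reached the limit of d at ZT0 in replicate 1, where 2.63% of the genes tested had. With replicate 2 held out, 71 of 118 genes reached the limit in it, against 3.05% of all. With replicate 3 held out, 62 of 119 did, against 2.31%. The median d of these genes in the held-out replicate was 1.42, 1.38 and 1.28 for replicates 1, 2 and 3, and d was above 0 in 97.27%, 94.07% and 96.64% of them. Closeness of LD and SD at ZT2 and ZT4 came back at a share below that of all genes: 62.73%, 61.02% and 66.39% of the chosen genes were within both windows in the held-out replicate, against 69.46%, 67.19% and 67.53% of all genes tested. The whole rule was met again in replicates 1, 2 and 3 by 52, 47 and 45 genes, against 171, 165 and 126 of all 28480 genes tested. This background includes many weakly expressed genes. Median TPM in LD at ZT0 was 16.2 in the members and 2.35 over the 30111 genes tested in ZT2 against ZT0. The 1 added to each TPM draws d of weak genes towards 0. Their shares are therefore raised for the windows and lowered for the limit, and a background of like expression was not counted.

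The change over the first 2 h of light, averaged over the photoperiods, asks whether the mean level of a member over LD and SD changed after dawn. In a balanced design with equal spread the mean of LD and SD is uncorrelated with their difference, so the rule did not set this measure directly. With unequal spread the separation is not complete. Nor is it complete where both SD groups were at the floor of at most 3 counts in each library. A fall then rests on LD at ZT0, which the rule chose as high. The rule also made LD and SD change unequally between ZT0 and ZT2. No member could therefore be flat in both photoperiods, as other genes could. Through the 1 added to each TPM, a gene that fell to near 0 TPM at ZT2 was also within the window. The part of these limits in the shares called was not tested. All 103 members passed its filter on a total count above 1, though *Medtr8g106795* only through its LD libraries of ZT0. By edgeR's quasi-likelihood test, 54 members were higher at ZT2 than at ZT0, 21 were lower and 28 were not called. Of the 30111 genes tested, 19.2% were called higher and 19.2% were called lower. The share of members was 52.4% for higher and 20.4% for lower. This background includes many weakly expressed genes. Among the 20410 genes that pass filterByExpr, 27.7% were called higher and 28.9% lower, against 54 (56.2%) and 21 (21.9%) of the 96 members tested there. The share of members called higher was above both backgrounds, and the share called lower was near the first and below the second. The median log2 fold change was 0.37 over the members and -0.01 over all genes tested, and 0.21 and -0.02 with limma on log2(TPM + 1). In 14 members, among them 6 of the 21 called lower, a group was at the floor. With group means in these members raised to at least 3 counts per library, in CPM without TMM, the median over all members was 0.32. This is not a bound where groups of both timepoints were at the floor.

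The changes in LD and in SD taken apart use the contrast of the rule, which makes SD move further upwards than LD in every member, so they are given as a description. Among the 54 members that rose on average, the TPM of ZT2 was at least 2-fold that of ZT0 in 38 in SD and in 5 in LD (on log2(TPM + 1)), and the LD change was within 0.5 of 0 in 44. The median TPM over these members was 24.9 in LD and 8.22 in SD at ZT0, 24.2 in LD and 19.2 in SD at ZT2, and 19.6 in LD and 20.8 in SD at ZT4. Among the 21 members that fell on average, the LD change on this scale was -1 or below in 19, and the SD change was within 0.5 of 0 in 16. In weak members the 1 added to each TPM makes a fall small. *Medtr3g117320* in SD was at 0.279 TPM at ZT0 and 0.093 TPM at ZT2, with a change of -0.226. An SD change near 0 therefore does not mean that SD was flat. The median TPM of the 21 members was 8.57 in LD and 2.1 in SD at ZT0, against 1.52 in LD and 1.22 in SD at ZT2.

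**Figure D3:**
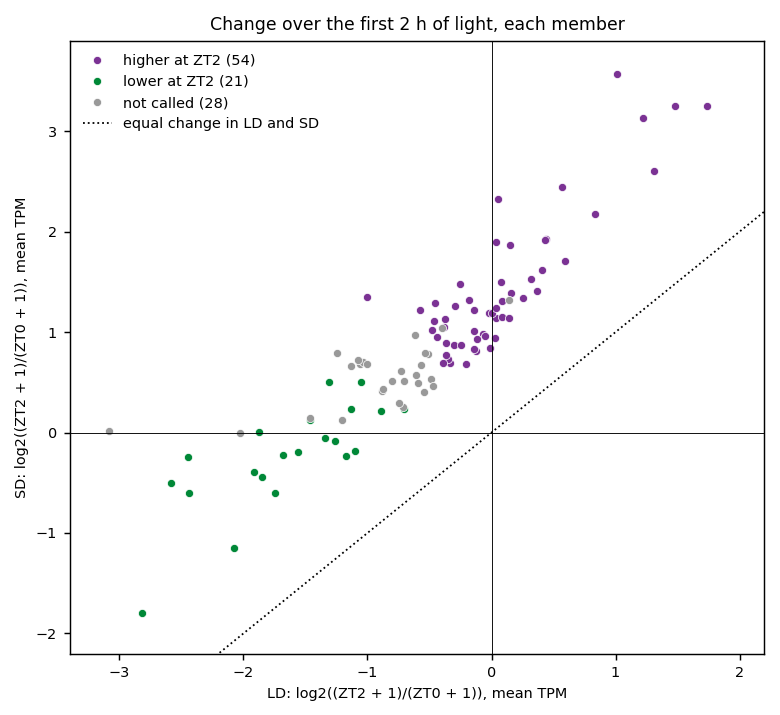
Change between ZT0 and ZT2 in each of the 103 members, with LD on the horizontal axis and SD on the vertical axis, as log2((ZT2 + 1)/(ZT0 + 1)) of mean TPM. The dotted line marks equal change, and all members lie above it because the rule placed them there. LD changes ran between -3.08 and 1.73 and SD changes between -1.8 and 3.56. The averaged test was fitted to counts and not to log2(TPM + 1), so its values can differ from these.

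The averaged change was also counted in 2 sets chosen in a like manner, and no test between the sets was made. Of the 195 genes lower in LD only at dawn (the mirror of the rule), 15 (7.7%) were higher at ZT2 and 110 (56.4%) were lower, with a median log2 fold change of -1.07. Of the 84 genes higher in LD only at ZT4, 25 were higher at ZT2 and 7 were lower, with a median log2 fold change of 0.44. More genes called higher than lower was thus not particular to the members, though the higher share of the ZT4 set was near that under filterByExpr. These sets share libraries with the members.

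Descriptions in the Mt4.0 annotation were at hand for 96 of the 103 members, and were sorted into classes by their words. All 3 members of starch and sugar metabolism rose over the first 2 h. *Medtr5g091340*, a sucrose-phosphate synthase, which catalyses a committed step of sucrose synthesis, had 116, 96.0 and 93.9 TPM in LD at ZT0, against 37.95, 30.9 and 38.8 TPM in SD. At ZT2 it was at 108 ± 3.5 TPM in LD and 104 ± 10.8 TPM in SD, and its averaged log2 fold change was 0.88 ± 0.066 (adjusted p = 1.91e-08), where ± after a log2 fold change gives its standard error (SE) and all such values and p are from edgeR. *Medtr1g109620*, a trehalose-6-phosphate synthase (trehalose-6-phosphate signals sucrose status in plants), had 8.79, 8.52 and 6.12 TPM in LD at ZT0, against 2.55, 2.18 and 2.32 TPM in SD, with an averaged log2 fold change of 1.24 ± 0.092 (adjusted p = 1.85e-08). Neither gene had overlapping groups at dawn. *Medtr4g092780*, a glucose-6-phosphate 1-epimerase-like gene, had 9.89, 6.0 and 9.25 TPM in LD, against 2.29, 1.02 and 0.947 TPM in SD. Its averaged log2 fold change of 0.53 ± 0.174 (adjusted p = 0.0232) did not pass the threshold without SD replicate 2 or 3 of ZT0 (adjusted p = 0.081 and 0.0805), without replicate 2 of either photoperiod at ZT2 (adjusted p = 0.0571 without LD and 0.0738 without SD), or with limma on log2(TPM + 1) (adjusted p = 0.157).

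Specialised metabolism held 10 members, of which 6 rose, 2 fell and 2 were not called. *Medtr7g084300*, of the chalcone and stilbene synthase family, whose chalcone synthases make the first flavonoid intermediate, had 270, 364 and 262 TPM in LD at ZT0, against 116, 104 and 139 TPM in SD. It rose to 741 ± 35.4 TPM in LD and 730 ± 48.2 TPM in SD at ZT2, an averaged log2 fold change of 2.04 ± 0.097 (adjusted p = 1.25e-10). *Medtr4g019790*, the glutathione S-transferase, rose by 2.68 ± 0.093 (adjusted p = 5.27e-12). In these genes dawn was below ZT2 in both photoperiods, and lower in SD. The glycosyltransferases, which attach sugars to acceptors that their descriptions do not name, moved less. *Medtr3g098500* had 74.6 ± 0.251 TPM in LD and 24.3 ± 2.94 TPM in SD at ZT0, *Medtr8g096110* had 56.7 ± 3.71 TPM in LD and 18.4 ± 2.18 TPM in SD, and the UDP-glucosyltransferase *Medtr6g014250* had 45.6 ± 7.36 TPM in LD and 14.5 ± 1.7 TPM in SD. Their averaged log2 fold changes were 0.38 ± 0.057, 0.81 ± 0.06 and 0.46 ± 0.101 (adjusted p = 4.88e-05, 1.66e-08 and 0.00147). The cytochrome P450 *Medtr1g091023* was not called (adjusted p = 1), with both SD groups at the floor. With limma on log2(TPM + 1) it was lower at ZT2 (adjusted p = 0.00908). That fall rests on the LD level at ZT0, which the rule chose as high.

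**Figure D4:**
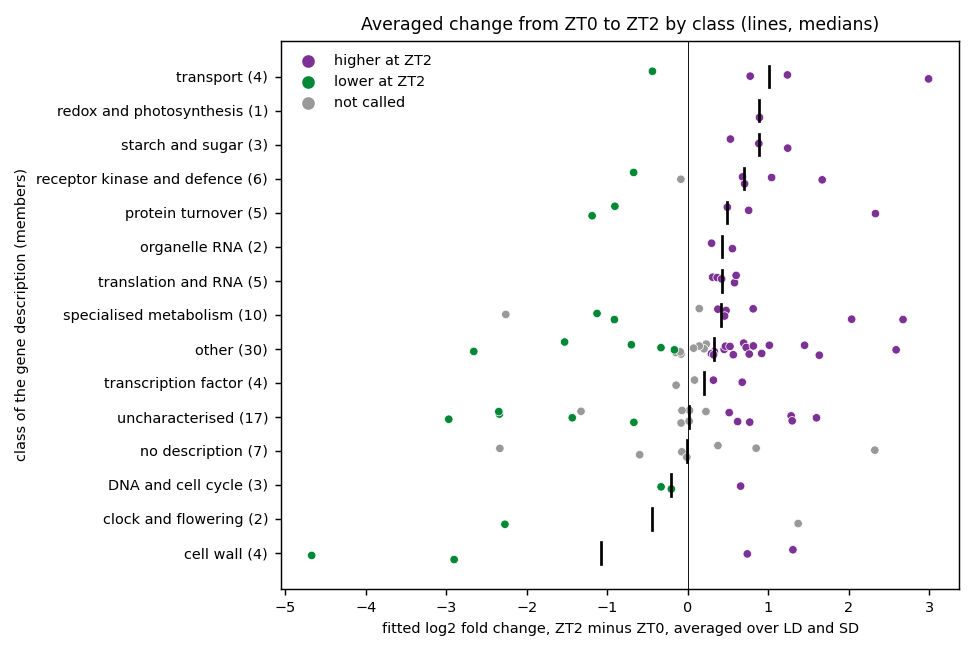
Fitted log2 fold change of ZT2 against ZT0, averaged over LD and SD, of each member by class (points, with vertical jitter for display only), with the number of members in brackets and the class median as a line. All members of starch and sugar (3), organelle RNA (2) and translation and RNA (5, with the rubber elongation factor *Medtr4g088915* placed there by its words) lie above 0, and the cell wall class spans from -4.67 to 1.31. The fitted size is uncertain in the 14 members with a group at the floor, among them the pectinesterase *Medtr8g104655* at -4.67.

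The words of the translation and RNA class took in 5 members, all called higher at ZT2. *Medtr4g088915*, a rubber elongation factor protein (0.37 on the log2 scale, adjusted p = 0.0144), was among them through the words elongation factor and is not a translation or RNA gene by its description, which leaves the 4 below. *Medtr8g088030*, a 16S rRNA processing protein of the RimM type, which in bacteria helps to mature the small ribosomal subunit, had 47.004, 55.6 and 40.7 TPM in LD at ZT0, against 16.1, 13.7 and 17.3 TPM in SD. *Medtr1g097610*, a 30S ribosomal protein S1, had 17.1, 14.3 and 17.5 TPM in LD, against 5.77, 5.40 and 6.60 TPM in SD. The dawn groups were apart in both. Their averaged log2 fold changes were 0.42 ± 0.07 and 0.58 ± 0.076 (adjusted p = 0.000124 and 1e-05). *Medtr7g069950*, a 40S ribosomal S4-like protein, changed by 0.60 ± 0.087 (adjusted p = 3.07e-05). *Medtr3g006730*, a glycyl-tRNA synthetase, which charges tRNA with glycine, changed by 0.31 ± 0.079 (adjusted p = 0.00466), and was not called with limma on log2(TPM + 1) (adjusted p = 0.116). Descriptions of 30S and 16S type are those of bacterial and organelle ribosomes, and the 40S type is cytosolic.

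Both organelle RNA members also rose. *Medtr2g026635*, a pentatricopeptide repeat protein (a family that binds organelle transcripts in splicing, editing and stability), had 28.7, 28.02 and 34.5 TPM in LD at ZT0, against 9.97, 9.04 and 11.6 TPM in SD. It was at 23.9 ± 2.36 TPM in LD and 17.1 ± 0.646 TPM in SD at ZT2, with an averaged log2 fold change of 0.30 ± 0.082 (adjusted p = 0.00825). It was not called with limma on log2(TPM + 1) (adjusted p = 0.0936). *Medtr2g437160*, an mTERF protein (a family that acts on organelle gene expression), was at 10.96 ± 2.03 TPM in LD and 4.02 ± 0.458 TPM in SD at ZT0 and changed by 0.56 ± 0.116 (adjusted p = 0.000951). *Medtr3g082690*, of the rubisco methyltransferase family, the only member in the redox and photosynthesis class, had 31.7, 26.6 and 31.8 TPM in LD at ZT0, against 10.2, 10.9 and 14.2 TPM in SD. It was at 33.7 ± 2.28 TPM in LD and 32.4 ± 0.996 TPM in SD at ZT2, with an averaged log2 fold change of 0.89 ± 0.083 (adjusted p = 2.32e-07). In this gene SD at dawn stood apart from the other 3 groups of experiment 1.

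The histone genes split. *Medtr1g070435* and *Medtr1g070390*, both linker histones, which bind DNA between nucleosomes, fell over the first 2 h. *Medtr1g070435* had 168, 168 and 145 TPM in LD at ZT0, against 49.2, 44.3 and 46.04 TPM in SD, and was at 64.2 ± 3.2 TPM in LD and 66.1 ± 10.3 TPM in SD at ZT2. *Medtr1g070390* had 96.6, 105 and 76.6 TPM in LD at ZT0, against 40.4, 33.8 and 35.8 TPM in SD, and was at 44.2 ± 1.24 TPM in LD and 52.2 ± 6.09 TPM in SD at ZT2. In both, LD was high at dawn and SD somewhat below its ZT2 level. The averaged log2 fold changes were -0.33 ± 0.067 for *Medtr1g070435* (adjusted p = 0.00076) and -0.20 ± 0.073 for *Medtr1g070390* (adjusted p = 0.0369). The call of *Medtr1g070390* was lost with 7 of the 12 libraries of experiment 1 left out in turn. Their IDs are close, and estimated counts of near-identical copies can be split between them, which makes their separate values uncertain. *Medtr7g099960*, a core histone gene, had 78.2, 69.8 and 79.3 TPM in LD at ZT0, against 29.4, 27.5 and 33.7 TPM in SD, and rose by 0.66 ± 0.06 (adjusted p = 2.06e-07).

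Of 4 members placed in the transcription factor class by their words, 2 rose and 2 were not called. *Medtr4g068000*, described as a plant regulator of the RWP-RK family, was sorted among other descriptions. It changed by 0.295 on the log2 scale (adjusted p = 0.00226). *Medtr1g015930*, a C2H2 zinc finger gene, had 57.3, 60.6 and 62.6 TPM in LD at ZT0, against 20.3, 18.1 and 23.2 TPM in SD. At ZT2 it was at 59.4 ± 2.82 TPM in LD and 48.1 ± 3.38 TPM in SD (averaged log2 fold change 0.68 ± 0.059, adjusted p = 1.08e-07). The LD libraries of ZT2 lay near those of dawn, and SD had come closer to them. The TCP gene *Medtr8g463380* changed by 0.32 ± 0.082 (adjusted p = 0.00469), and was not called with limma on log2(TPM + 1) (adjusted p = 0.107). The homeobox gene *Medtr3g107530* was at 23.8 ± 1.77 TPM in LD and 9.23 ± 1.62 TPM in SD at ZT0, and the PLATZ zinc-binding gene *Medtr7g102790* was at 5.63 ± 1.15 TPM in LD and 1.33 ± 0.679 TPM in SD. Their averaged log2 fold changes were 0.09 ± 0.077 and -0.14 ± 0.211 (adjusted p = 0.44 and 0.661).

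Of 4 transport members, 3 rose and 1 fell. The transporter *Medtr5g026350* had the largest averaged log2 fold change among all members called higher, 2.99 ± 0.092 (adjusted p = 1.32e-12). The MATE efflux genes, of a family that exports organic acids and flavonoids, were *Medtr4g071420*, at 11.3 ± 1.37 TPM in LD and 3.1 ± 0.386 TPM in SD at ZT0, and *Medtr7g070210*, at 9.28 ± 0.777 TPM in LD and 2.16 ± 0.513 TPM in SD. They changed by 1.24 ± 0.075 and 0.78 ± 0.08 (adjusted p = 1.86e-09 and 8.02e-07). *Medtr8g059125*, a choline transporter-like gene, was at 9.11 ± 0.661 TPM in LD and 3.01 ± 0.202 TPM in SD at ZT0 and at 3.61 ± 0.623 TPM in LD and 3.71 ± 0.253 TPM in SD at ZT2. In this gene LD came down to the SD level, an averaged log2 fold change of -0.44 ± 0.079 (adjusted p = 0.000263).

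The receptor kinase and defence class took in 6 members by the word kinase or receptor, of which 4 rose, 1 fell and 1 was not called. Only *Medtr8g044230* and *Medtr6g060230* are described as receptor-like kinases. *Medtr1g046510*, a hydroxyethylthiazole kinase family protein (an enzyme type of thiamine metabolism), changed by 0.68 on the log2 scale (adjusted p = 0.00143), and the WNK-like kinase *Medtr2g078750* by 0.71 (adjusted p = 1.26e-05). The LRR receptor-like kinase *Medtr8g044230* changed by 1.67 ± 0.172 (adjusted p = 7.64e-07), and the kinase *Medtr8g005720*, at 38.1 ± 2.39 TPM in LD and 13.8 ± 1.17 TPM in SD at ZT0, changed by 1.04 ± 0.065 (adjusted p = 2.48e-09). *Medtr6g060230*, another LRR receptor-like kinase, was at 6.75 ± 0.429 TPM in LD and 1.90 ± 0.364 TPM in SD at ZT0, and at 2.66 ± 0.311 TPM in LD and 3.79 ± 0.214 TPM in SD at ZT2. Its LD and SD levels moved in opposite directions, and the average was not called (-0.08 ± 0.093, adjusted p = 0.533). *Medtr5g098510*, whose SNF1-related kinase is a sensor of energy supply in plants, had 17.5, 14.5 and 10.46 TPM in LD at ZT0, against 6.13, 4.35 and 5.64 TPM in SD, and fell by 0.67 on the log2 scale (SE 0.127, adjusted p = 0.000404).

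Of 5 members in protein turnover, 3 rose and 2 fell. *Medtr1g492730*, an OTU-like cysteine protease, a type that removes ubiquitin, had 40.3, 34.97 and 43.3 TPM in LD at ZT0, against 10.9, 10.6 and 13.5 TPM in SD. It was at 93.5 ± 4.04 TPM in LD and 110.3 ± 4.4 TPM in SD at ZT2, an averaged log2 fold change of 2.33 ± 0.071 (adjusted p = 1.32e-12). The aspartic proteases *Medtr7g105850* and *Medtr1g037630* changed by 0.76 ± 0.091 and 0.49 ± 0.08 (adjusted p = 3.85e-06 and 9.92e-05). *Medtr0003s0560*, a serine carboxypeptidase-like gene, had 25.3, 24.6 and 25.5 TPM in LD at ZT0, against 7.93, 8.60 and 8.77 TPM in SD, and was at 6.79 ± 0.418 TPM in LD and 5.21 ± 1.64 TPM in SD at ZT2. Its averaged log2 fold change was -1.19 ± 0.116 (adjusted p = 4.02e-07), with the larger part of the fall in LD.

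The 4 cell wall members split evenly. *Medtr3g449590*, of the polygalacturonase family, which cuts pectin, had 44.7, 42.1 and 41.8 TPM in LD at ZT0, against 11.4, 10.9 and 13.87 TPM in SD, and rose by 1.31 ± 0.061 in the averaged contrast (adjusted p = 9.68e-11). *Medtr2g086530*, a glycoside hydrolase of family 17, which holds beta-1,3-glucanases, was at 14.05 ± 1.48 TPM in LD and 3.70 ± 0.41 TPM in SD at ZT0 and rose by 0.74 ± 0.143 (adjusted p = 0.00051). *Medtr4g079700*, a Pmr5/Cas1p acyl-esterase, of a group that acetylates wall polymers, had 18.6, 13.87 and 20.7 TPM in LD at ZT0, against 5.25, 6.67 and 6.23 TPM in SD. At ZT2 it was at 1.65 ± 0.173 TPM in LD and 1.03 ± 0.19 TPM in SD, so that it fell in both photoperiods, with an averaged log2 fold change of -2.90 ± 0.15 (adjusted p = 3e-10). *Medtr8g104655*, a pectinesterase, had 4.67, 8.31 and 1.29 TPM in LD at ZT0, against 1.59, 0.950 and 1.18 TPM in SD, which overlap. It was called lower at ZT2 (adjusted p = 2.09e-06), where the SD libraries held at most 3 counts, so the size of its fall is uncertain.

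The clock and flowering class held 2 members, both weakly expressed. *Medtr3g117320*, a salt tolerance-like gene that the study listed among CCT domain candidates, had 3.72, 1.72 and 4.56 TPM in LD at ZT0, against 0.354, 0.068 and 0.416 TPM in SD. In *Arabidopsis thaliana*, SALT TOLERANCE is a B-box protein of light signalling. The means were 0.353 TPM in LD and 0.093 TPM in SD at ZT2, and 0.369 TPM in LD and 0.552 TPM in SD at ZT4. The gene was called lower at ZT2 (adjusted p = 0.00157) with SD at the floor there. *Medtr2g041390*, annotated as a FRIGIDA interacting protein, had 1.97, 2.34 and 1.56 TPM in LD at ZT0, against 0 in each SD library, at least 4.54-fold higher in LD in CPM with SD set to 3 counts per library. The average was not called (adjusted p = 0.326), and its direction turned with limma on log2(TPM + 1).

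*Medtr3g117320* was the only member among the photoperiod pathway candidates that the study listed. Of the 129 candidates tested in LD against SD at ZT0, 32 were called higher in LD and 45 lower by edgeR, where 14.3% and 13.0% of all genes tested were. That background includes many weakly expressed genes. Among the 19645 genes that pass filterByExpr, 4161 were called higher and 3822 lower, against 33 and 47 of the 114 candidates tested there. Of the listed candidates, 13 reached the limit at ZT0, and 12 of them were outside a window at ZT2 or ZT4. Of these 12, the CONSTANS-like gene *MtCOLk* (*Medtr1g110870*) was within the window at ZT2 and just outside it at ZT4, at 101 TPM in LD and 29.04 TPM in SD at ZT0, with d at 1.77, 0.00 and -0.60 at ZT0, ZT2 and ZT4. *MtCOLk* fell over the first 2 h by 2.80 on the log2 scale in the averaged contrast (edgeR, adjusted p = 2.35e-11). Among the 24 CCT domain candidates tested, 6 were higher and 6 lower in LD at ZT0, and among 11 COL genes 3 were higher and 5 lower.

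Of the 17 uncharacterised members, 6 rose, 5 fell and 6 were not called. *Medtr4g012330* and *Medtr4g012460*, hypothetical proteins, had the largest d of these. *Medtr4g012330* had 5.64, 4.22 and 5.62 TPM in LD at ZT0, against 0.449, 0.395 and 0.204 TPM in SD. *Medtr4g012460* had 9.54, 8.21 and 7.97 TPM in LD, against 0.917, 0.916 and 2.04 TPM in SD. At ZT2 *Medtr4g012330* was at 0.132 TPM in LD and 0.14 TPM in SD, and *Medtr4g012460* at 0.596 TPM in LD and 0.613 TPM in SD. Both were called lower there (adjusted p = 0.00155 and 0.000102). In *Medtr4g012330* SD at ZT0 and both groups of ZT2 were at the floor. Its call therefore rests on the LD level at ZT0, which the rule chose as high. The members *Medtr4g012490* and *Medtr4g012510*, named after their values were seen, have neighbouring IDs and the same annotation. *Medtr4g012490* was at 7.71 ± 1.15 TPM in LD and 1.44 ± 0.359 TPM in SD at ZT0, and *Medtr4g012510* at 2.26 ± 0.999 TPM in LD and 0.254 ± 0.098 TPM in SD. If these genes are near-identical copies, reads could be shared between them.

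The 30 members of other descriptions held 16 that rose, 5 that fell and 9 that were not called. The lipid transfer protein *Medtr4g115360* was not called, with an averaged log2 fold change of -0.15 ± 0.139 (adjusted p = 0.463). Its LD mean was lower and its SD mean higher at ZT2 than at ZT0. None of the 7 members with no description at hand was called, and 5 of them had a group at the floor.

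Gene IDs of Mt4.0 give the chromosome and an order along it. The members were on all 8 chromosomes, with between 4 (chromosome 6) and 17 (chromosomes 3 and 4) on each, or 0.218% to 0.438% of the genes tested there, and 2 were on scaffolds. There were 8 pairs of successive members whose ID numbers differed by at most 200, made up of 14 members. Among these were the linker histones, the 4 hypothetical genes of chromosome 4, the UDP-glucosyltransferases *Medtr6g014050* and *Medtr6g014250*, and *Medtr3g082690* with the adjacent *Medtr3g082680*.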

How the data were processed

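The authors trimmed the reads with BBDuk, quantified them with Salmon 0.8.2 against the Mt4.0v2 transcriptome and summed transcripts per gene with tximport. They deposited estimated counts, with no scaling or filter, and TPM, which sum to 1000000 in each library. The TPM column is stacked over 18 libraries. Members and gene lists were chosen with earlier results of these data known.

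Estimated counts were rounded and scaled by TMM. Genes with a total count above 1 were fitted by edgeR 4.0.16 (R 4.3.3, quasi-likelihood test): LD against SD at each timepoint separately (6 libraries per fit), with Benjamini-Hochberg adjustment over the 3 timepoints together, and ZT2 against ZT0 averaged over photoperiods in the 12 libraries of experiment 1, adjusted over all genes tested. The threshold was 0.05. The SE is the log2 fold change over the square root of F. The floor of a group was 3 counts or fewer in all its libraries, which covers counting error only. The steps were tested on simulated data.

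Named genes are the 10 members with the largest d among those with at least 5 TPM in LD and no overlap at ZT0, every member among the study's photoperiod candidates, up to 4 members per class with the highest TPM in LD at ZT0, and the 3 genes on each side of the limit. Gene IDs were compared with a RefSeq table, in which 0 were found, so descriptions follow the study's Mt4.0 annotation. Separate plants were pooled for each replicate. Alternatives were DESeq2 1.42.0 and its size factors, limma 3.58.1 on log2(TPM + 1), other filters, a replicate block, each library left out in turn, and other limits of the rule.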

Additional observations from a re-analysis of the deposited data

How the results depend on the processing

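The number of members moved most with the limits of the rule. With a minimum d of 1 at ZT0 it was 247, with a minimum of 1.5 it was 45, and with a window of 0.25 it was 27. With pseudocounts of 0.5 and 2 it was 141 and 72, of which 92 and 62 were among the 103. With TMM-scaled CPM in place of TPM it was 69, and 58 of these were members by TPM. Only 97 passed filterByExpr. Leaving out each library in turn gave 94 to 130 members.

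For ZT2 against ZT0, DESeq2 called 54 members higher and 19 lower, and limma on log2(TPM + 1) called 46 higher and 23 lower (median log2 fold change 0.21, against 0.37 with edgeR), with 67 of the 75 calls shared. Over all genes limma called 4450 higher and 6599 lower, against 5775 and 5778 with edgeR. Leaving out each library gave 53 to 57 members higher and 18 to 21 lower, and no shared call changed sign in any alternative. Among the named members, *Medtr2g041390* turned to -0.29 with limma and *Medtr7g102790* to 0.07 without SD replicate 3 of ZT0, neither of them called (adjusted p = 0.284 and 0.869). Leaving out each library, *Medtr7g102790* ran between -0.255 and 0.07. The cause was not tested. *Medtr7g045270* passed the threshold without LD replicate 3 of ZT0 (0.37, adjusted p = 0.0384).

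Same-numbered libraries did not deviate together (correlations of deviations between -0.186 and 0.131 over 21062 genes, and between -0.227 and 0.156 for ZT2 with ZT0), so the numbers do not pair the samples. With a replicate block 7056 genes were called in LD against SD at ZT0 and 11014 in ZT2 against ZT0, against 7781 and 11553 without it. It gave 74 of the 75 member calls, losing *Medtr1g070390* (adjusted p = 0.0504). With the block 73 candidates were called, against 77 without it. Leaving out each library, calls of LD against SD at ZT0 ran from 5744 to 7868 and candidate calls from 65 to 79. Depth limits the members with under 4 counts in a group.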
